A study of Mus musculus with 10 samples.

Results

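The DOCK proteins measured here are 8 large exchange factors for the small GTPases Rac and Cdc42 (Dock1, Dock2, Dock4, Dock5, Dock8, Dock9, Dock10 and Dock11), set beside Elmo1, a partner that several of them need. All probe sets whose single platform gene symbol is one of these 9 genes were taken, which gave 29 of the 45037 probe sets on the array. The genes were chosen with the comparison of shRNA and control known, because Dock5 had one of the deepest decreases in it. The changes of the 9 genes between the groups are therefore a description and carry no test.

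The cells were murine leukaemia cells driven by the Mll-AF9 fusion (line 4166), cultured with 2 ng/ml interleukin 3 and 15% fetal bovine serum (FBS) in IMDM medium. The control group had been transduced with an empty lentiviral vector (n = 5 arrays) and the other group with a lentivirus that carried an shRNA against Meis1 (n = 5). Both groups carried the fusion, were selected in puromycin and were profiled 48 h after transduction on Affymetrix mouse arrays, and the labels pair control and shRNA samples by number. The control vector held no hairpin, so lower Meis1 and the presence of any hairpin cannot be told apart, and all samples came from a single leukaemia line. Whether the 5 samples of a group were separate cultures is not in the labels, so SEs and p-values reflect the spread among these arrays and this may be partly technical.

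DOCK proteins exchange GDP for GTP on Rac or Cdc42 through a catalytic region (DHR2) unlike that of the classical Dbl exchange factors, and a DHR1 region brings them to phosphoinositides at the membrane. Dock1, Dock2 and Dock5 form the DOCK-A group and Dock4 belongs to DOCK-B. These act on Rac and bind ELMO proteins, which link them to active RhoG and relieve their autoinhibition. Dock8 belongs to DOCK-C, and Dock9, Dock10 and Dock11 (the zizimins) to DOCK-D, and they act mainly on Cdc42. In blood cells the family is known for migration, shape and adhesion, with Dock2 and Dock8 the best studied in leukocytes.

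The arrays had a Pearson correlation of log2 levels between 0.986 and 0.996 over all probe sets, which are not independent replicates. Correlations over all probe sets can hide differences between pairs in single genes, some of which are given below. Values are RMA intensities on a linear scale, with a median per array of 6.24 to 6.70, and the number of arrays limits their precision. Bacterial Trpn control probe sets, which served as a reference for background, had mean log2 levels of 1.90 to 1.98. The bright Meis1 probe set 1450992_a_at fell from 346 ± 56.3 to 165 ± 40.2 (mean ± SD, n = 5 arrays each), lower in 5 of 5 pairs (log2 change -1.09, SE 0.09, limma adjusted p = 0.000767). The other Meis1 probe sets, 1443260_at and 1459423_at, were dim and changed by 0.09 and 0.11, and the mean over the 3 sets was at -0.29 (adjusted p = 0.046). Of 10 myeloid progenitor markers 9 had a mean log2 level over 5, and their summed intensity ran from 22600 to 39800 in the controls and from 20040 to 34600 with the shRNA. None of 6 T and B cell, 5 erythroid and megakaryocytic, 5 mast cell or 6 stromal and endothelial markers did, and the sums of these lists lay between 24.8 and 68.0 in all arrays. Among the markers, the stem cell factor receptor Kit fell in 5 of 5 pairs (log2 change -0.78, SE 0.08, limma adjusted p = 0.00237), as did the dim endothelial and leukocyte marker Pecam1 (-0.71, SE 0.15, adjusted p = 0.0454). Some markers also differed between pairs by the F test of the pairs in the limma fit. Elane read 1421 and 1285 in controls 1 and 2 but 3410, 3671 and 3347 in controls 3 to 5 (adjusted p = 0.00202). Kit, Ctsg, Cd33 and Pecam1 differed too (adjusted p = 0.0116, 0.0187, 0.0126 and 0.0217), and the other markers did not pass. The part of these markers in the Dock5 result was not tested. RNA integrity was read from the 3'/5' signal ratio of control probe sets for actin and Gapdh. Its log2 value averaged 0.28 ± 0.06 in control arrays and 0.37 ± 0.02 in shRNA arrays (SD, n = 5 each) and was higher with the shRNA in 5 of 5 pairs.

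Dock5, a Rac exchange factor known from osteoclasts and mast cells, was lower with the Meis1 shRNA in all 5 pairs by each of its 3 probe sets. By the probe set 1430291_at, control samples 1 to 5 read intensities of 53.3, 71.3, 63.6, 69.9 and 36.6. Their shRNA partners read 15.7, 17.2, 19.55, 29.1 and 22.45. The groups did not overlap, and the lowest control, sample 5, stood above the highest shRNA sample, sample 4. The means were 58.9 ± 14.4 and 20.8 ± 5.31 (SD, n = 5), a level 2.82-fold lower, and the log2 change was -1.50 (SE 0.18). As the arrays measure bulk RNA, fewer cells that express a gene and less of its RNA per cell cannot be told apart.

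The second Dock5 probe set, 1439129_at, read 16.1, 11.7, 24.8, 33.9 and 10.02 in control samples 1 to 5. The shRNA samples read 9.69, 6.71, 8.12, 6.91 and 5.92. Here too the groups did not overlap, though control 5 and shRNA 1 lay close together, and the log2 change was -1.24 (SE 0.22). The third, 1425747_at, read 10.02, 10.4, 10.2, 17.7 and 8.197 in the controls and 9.43, 8.03, 9.10, 9.54 and 6.32 with the shRNA. Its groups overlapped, its log2 change was -0.38 (SE 0.12), and control 4 stood well above the other controls. Across the 10 arrays the log2 levels of 1430291_at had a Pearson r of 0.786 with 1439129_at and 0.627 with 1425747_at, and the latter had 0.834 with each other. These points share the arrays and the difference between the groups.

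**Figure D1:**
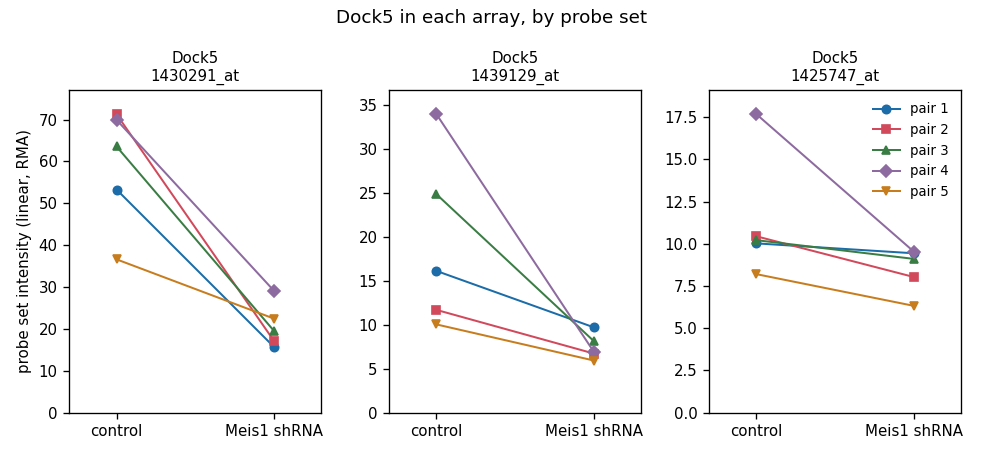
Intensity (linear RMA scale, vertical axis from 0) of the 3 Dock5 probe sets in each of the 10 arrays, with lines that join the control and the Meis1 shRNA sample of a pair. Every line ends lower with the shRNA, and the groups are separate for 1430291_at (36.6 to 71.3 against 15.7 to 29.1) and 1439129_at but not for 1425747_at.

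The size of the Dock5 decrease differed between pairs and between probe sets. By 1430291_at the log2 differences of pairs 1 to 5 were -1.76, -2.05, -1.70, -1.26 and -0.71, deepest in pair 2 and shallowest in pair 5. By 1439129_at they were -0.73, -0.80, -1.61, -2.30 and -0.76, deepest in pair 4, so the probe sets ordered the pairs differently. The Meis1 differences of the same pairs were -1.04, -0.90, -1.23, -1.22 and -1.05. Pair 2, where 1430291_at had its deepest Dock5 decrease, showed the smallest. Pairs 3 and 4, where 1439129_at had its deepest decreases, showed the largest. Whether the Dock5 and Meis1 differences follow each other was not tested. The log2 3'/5' ratio was higher with the shRNA in every pair, most in pair 4 (0.20 in the control, 0.39 with the shRNA) and least in pair 5 (0.37 and 0.39). With that ratio as a covariate beside the pairs, the log2 change of 1430291_at was -1.37 (SE 0.34, against 0.18 without the covariate). Those of 1439129_at and 1425747_at were -0.47 (SE 0.29) and -0.13 (SE 0.21). Only 1430291_at had a log2 level over 5 when both groups were averaged (5.09). It did so through the controls (mean 5.84), while its mean with the shRNA was 4.34, under that level. The other Dock5 probe sets, at 3.5 and 3.26, were closer to background.

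Across all 29 probe sets of the family, 2 passed an adjusted p of 0.05 by limma as lower, both for Dock5, beside 1.96% of all probe sets, and 0 as higher, beside 0.522%. The fit over all probe sets that gave these shares called 1116 in all, 2.48% of them. Since Dock5 was chosen from this comparison, the count is given only as a description. It was 1 in an unpaired fit, with a pseudocount of 16 or without pair 2 or 3, and 0 without moderation of the variances or with the 3'/5' ratio as a covariate. Not overlapping between groups were 2 probe sets, the same 2 of Dock5 (2.75% of all probe sets did not overlap and were lower). Lower in all 5 pairs were 5 of 29 (8.56% of all probe sets), namely the 3 of Dock5 and one each of Dock8 and Dock10. Higher in all 5 pairs was 1 of 29, for Dock2 (6.17% of all probe sets). The median log2 change was -0.05 over the 29 probe sets and 0.01 over all probe sets. Of the 29, 7 passed the filter on dim probe sets (a mean log2 level over 5), and they stood for 6 genes: Dock2, Dock5, Dock8, Dock10, Dock11 and, with 2 probe sets, Elmo1. Dock5 passed this filter only through its controls, the group where it was higher.

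**Figure D2:**
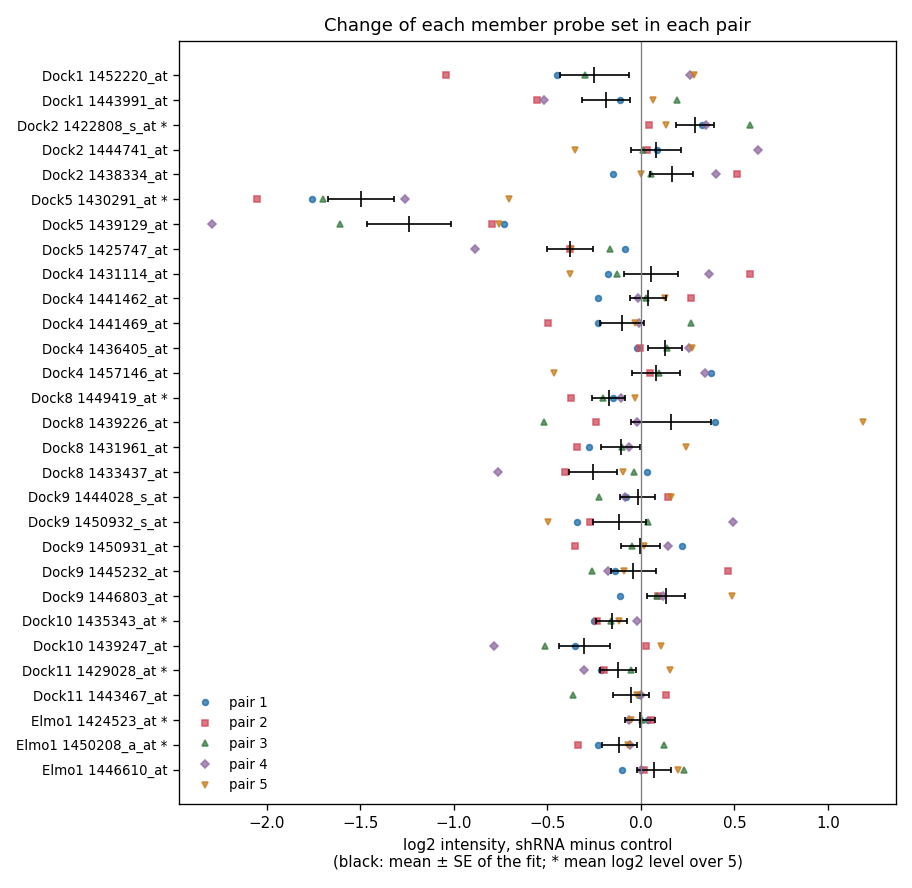
Log2 intensity difference, shRNA minus control, of each of the 29 probe sets (horizontal axis), with coloured points for the 5 pairs and black bars for the mean ± SE of the paired fit; asterisks mark the 7 probe sets with a mean log2 level over 5. The first 2 Dock5 probe sets lie at -1.50 and -1.24, and all others have means between -0.38 and 0.29.

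In the DOCK-A group Dock2, the main Rac exchange factor of lymphocytes and neutrophils, was the one gene with a probe set higher in all pairs. By 1422808_s_at, whose suffix marks a set that can detect several transcripts, the controls 1 to 5 read 494, 626, 413, 601 and 607.5. The shRNA samples read 619, 645, 620, 766 and 665.5. Control 2 stood above shRNA samples 1 and 3, so the groups overlapped, and controls 1 and 3 were the low ones. The means were 548.5 ± 91.5 and 663 ± 60.6 (SD, n = 5), a log2 change of 0.29 (SE 0.10), with pair differences from 0.04 in pair 2 to 0.59 in pair 3. With the 3'/5' ratio as a covariate the log2 change was 0.15 (SE 0.19). The other Dock2 probe sets, 1444741_at and 1438334_at, were dim and changed by 0.08 and 0.16 on the log2 scale. Dock1, the broadly expressed founder of the family, was dim by both of its probe sets. The brighter of them, 1452220_at, read 16.6 to 25.5 in the controls and 12.4 to 22.6 with the shRNA, lower in 3 of 5 pairs, with a log2 change of -0.25 (SE 0.18).

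A stretch of the Dock2 promoter is shown because Dock2 alone was higher in every pair, and one of Dock8 because of all windows of the family only that one held the core motif TGACAG that Meis1 recognises. RefSeq windows of 300 bases around gene starts (GRCm38.p6) were found for 8 of the 9 genes, Dock5 being the exception, and there were 12 of them. On either strand TGACAG was in 1 of the 12 and in 19.2% of all 32851 windows. GAGGAA, a core motif of ETS factors such as PU.1, was in 4 of the 12 (Dock1, Dock2, Dock9 and Elmo1) and in 28.3% of all windows. The searched letters do not overlap each other, a match is no evidence of binding, and capitals mark the motif in each line.
Dock2, chr11:34783906-34783965, minus strand, the 60 bases before the start: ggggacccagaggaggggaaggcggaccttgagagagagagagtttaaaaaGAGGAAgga
Dock8, chr19:24999527-24999554, plus strand, across the start: ccgcggcgcggcTGACAGatgaggctgg
The motif shown began 9 bases before the start in Dock2 and at base 11 of the transcript in Dock8. The Dock2 window held another GAGGAA match, on the opposite strand at 164 bases before the start, outside the stretch shown.

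Dock4 of the DOCK-B group, a Rac and Rap1 exchange factor, had 5 probe sets and all were dim. Their intensities lay between 2.83 and 8.17 in all arrays. The log2 changes ran from -0.10 to 0.13, and no probe set had the same direction in all pairs.

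Dock8 of the DOCK-C group, a Cdc42 exchange factor whose loss causes immunodeficiency, was somewhat lower in each pair by its bright probe set. By 1449419_at the controls 1 to 5 read 443, 436, 394, 471 and 306, and the shRNA samples 399, 336, 342.5, 436.5 and 299. Sample 5 was the lowest of both groups, and the groups overlapped over most of their range. The log2 change was -0.17 (SE 0.09), from -0.37 in pair 2 to -0.03 in pair 5. The other 3 Dock8 probe sets were dim and changed by 0.16, -0.11 and -0.26, in no case in the same direction in all pairs. One of them, 1439226_at, read 65.4 in shRNA sample 5 but 21.1 to 27.9 in the other shRNA samples and 21.1 to 31.45 in the controls.

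In the DOCK-D group Dock10 and Dock11, which are known from lymphocytes, had 1 bright probe set each, and Dock9 had none. Dock10 by 1435343_at read 814, 909, 695.5, 772 and 576 in controls 1 to 5 and 685, 774, 621, 759.6 and 532 with the shRNA. Every shRNA sample was below its own control, and sample 5 was again the lowest of both groups. The log2 change was -0.16 (SE 0.08), with pair differences from -0.25 to -0.02. Dock11 by 1429028_at read 631, 629, 571, 712 and 589 in the controls and 544, 549, 551, 575 and 657 with the shRNA. It was lower in pairs 1 to 4 and higher in pair 5, and changed by -0.12 (SE 0.10). With the 3'/5' ratio as a covariate, the Dock11 change was 0.08 (SE 0.16), of the other sign but smaller than its SE. That of Dock10 was -0.21 (SE 0.16). The 5 Dock9 probe sets read 3.8 to 12.6 in all arrays and changed by -0.12 to 0.13.

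Elmo1, the ELMO protein through which DOCK-A and DOCK-B factors are recruited and released from autoinhibition, was nearly level. By 1424523_at the controls 1 to 5 read 161, 164.5, 149, 180.2 and 168, and the shRNA samples 165, 171, 149.7, 172 and 162. The means were 164.5 ± 11.2 and 164.0 ± 9.08 (SD, n = 5), and the log2 change was -0.004 (SE 0.08), with pair differences between -0.06 and 0.06. With quantile normalization it was 0.09. The probe set 1450208_a_at read 98.7 to 130 in the controls and 95.5 to 124.8 with the shRNA and changed by -0.12 (SE 0.10), lower in 4 of 5 pairs. The third, 1446610_at, was dim.

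**Figure D3:**
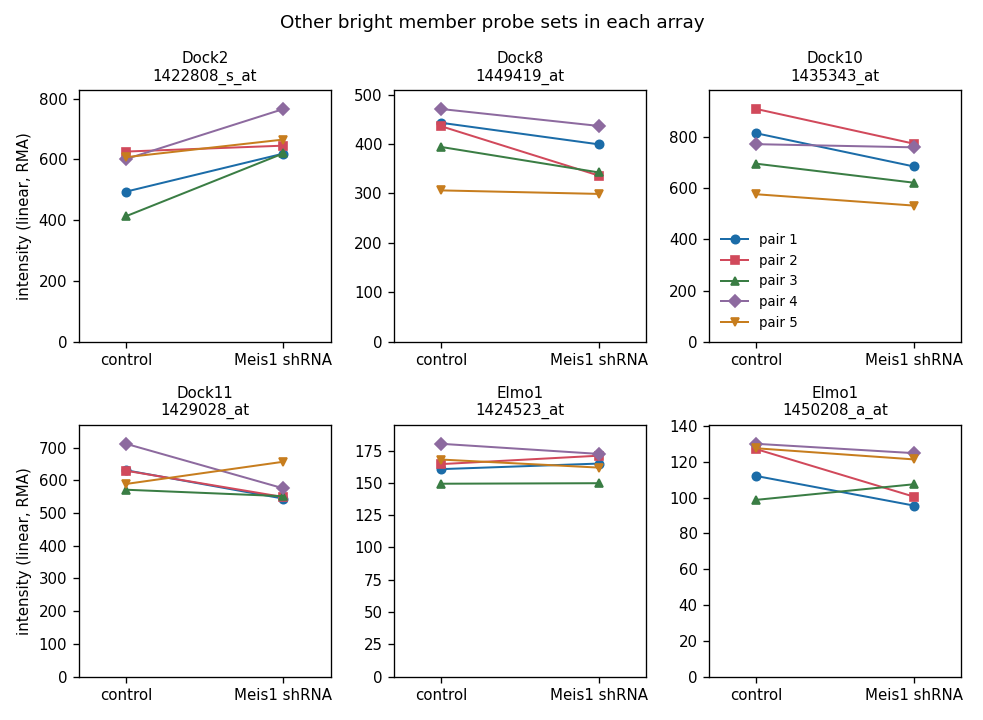
Intensity (linear RMA scale, vertical axes from 0) of the 6 bright probe sets of the family other than Dock5, in each array, with lines that join the samples of a pair. Dock2 is higher with the shRNA along every line, Dock8 and Dock10 are lower along every line, and lines of Dock11 and Elmo1 go both ways; the groups overlap in every panel.

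The differences between pairs are a measure that the choice of genes did not use. By the F test of the pairs in the same limma fit, 0 of the 29 probe sets differed between pairs at an adjusted p of 0.05, beside 0.753% of all probe sets. At an unadjusted p under 0.05 there were 4, namely 1435343_at of Dock10, 1449419_at and 1431961_at of Dock8 and 1425747_at of Dock5, beside 9.82% of all probe sets. With trend and robust eBayes 1 passed, Dock10 (adjusted p = 0.0152), beside 2.76% of all probe sets. The mean log2 level of Dock10 in the pairs ran from 9.11 in pair 5 to 9.71 in pair 2, and that of Dock8 by 1449419_at from 8.24 in pair 5 to 8.82 in pair 4. Both ranges were wider than the change between control and shRNA in the same probe set. For Dock5 by 1430291_at the pair means ran from 4.84 to 5.50, a range smaller than its change between the groups, for which Dock5 was chosen. A range of pair means and a difference of group means are unlike measures, so these comparisons are only a description.

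The genes around the DOCK proteins were taken from 6 lists with 128 genes, of which 118 were measured, each by its brightest probe set. By limma 7 passed, 5.93% beside 3.16% of all 18193 genes: 5 fell (2.34% of all genes did) and 2 rose (0.813%). The lists were not matched to all genes in signal level, so these shares do not measure enrichment. The list was chosen with earlier results known, and the median log2 change was 0.04 against 0.00395 over all genes. Among the DOCK and ELMO genes left out above, Dock3, Dock6, Elmo2 and Elmo3 were all dim, with log2 changes of 0.04, -0.25, -0.06 and -0.32, and 0 of 4 passed (2 lower at an unadjusted p under 0.05, 0 with trend and robust eBayes).

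The deepest fall was in Abi2, an adaptor of the WAVE complex through which active Rac drives branched actin. It read 147 to 185.5 in the controls and 52.1 to 89.3 with the shRNA, without overlap, and fell in 5 of 5 pairs (log2 change -1.34, SE 0.11, limma adjusted p = 0.000839). It was the 1 of 30 effectors and actin genes that passed, with 0 higher and a median change of 0.07. Of 17 GTPase-activating proteins and GDIs, Racgap1 alone passed, and it is known mainly for cytokinesis. It fell in 5 of 5 pairs (log2 change -0.86, SE 0.12, adjusted p = 0.00951), and the median of the list was 0.09. Without pair 2 or without pair 4 its adjusted p was 0.0509, and its change was -0.48 when its probe sets were averaged and -0.52 with the 3'/5' ratio as a covariate.

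Among 26 receptors, adaptors and upstream partners, 1 fell, 2 rose and 23 did not pass, with a median of 0.03. With trend and robust eBayes 2 passed as lower and 3 as higher, which added Git2 and Itgb5. In the main fit Itgb5 narrowly missed the threshold (log2 change 0.71, SE 0.15, limma adjusted p = 0.0503). It was higher in 5 of 5 pairs, though by only 0.01 in pair 5. Itgav, the integrin alpha V chain that signals to Rac through Crk and Dock1 in engulfment, read 189.5 to 263 in the controls and 90.8 to 140.3 with the shRNA. It fell in 5 of 5 pairs (log2 change -0.85, SE 0.11, adjusted p = 0.0053). Nck2, an SH2 and SH3 adaptor, rose by 0.61 (SE 0.11, adjusted p = 0.0241) and Mob1b, of the family of adaptors through which Mst1 acts on Dock8, by 0.41 (SE 0.09, adjusted p = 0.048), both higher in 5 of 5 pairs. As the mean of all their probe sets Itgav, Nck2 and Mob1b were at -0.24, 0.21 and 0.10 and did not pass (adjusted p = 0.255, 0.165 and 0.605). Nck2 also missed the threshold when any of pairs 1 to 4 was left out (highest adjusted p 0.0962) and Mob1b whichever pair was left out (0.074 to 0.160), in an unpaired fit (0.0873), with a random block (0.0604) and with median centring (0.0784).

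Of 23 other Rac and Cdc42 exchange factors, Vav2 and Prex1 fell, 0 rose and 21 did not pass, with a median of -0.07. Vav2, a Dbl-type factor downstream of tyrosine kinases, had a log2 change of -0.62 (SE 0.12, adjusted p = 0.0352) and Prex1, which responds to G beta gamma and PIP3, one of -0.53 (SE 0.11, adjusted p = 0.0423), both lower in 5 of 5 pairs. Both were dim, at 17.3 ± 3.62 and 30.1 ± 8.91 in the controls (SD, n = 5). With a pseudocount of 16 they were at -0.29 and -0.32 and did not pass (adjusted p = 0.0684 and 0.0678). Prex1 had adjusted p of 0.257 in an unpaired fit and 0.0901 after quantile normalization, and it missed the threshold whichever pair was left out (adjusted p 0.0515 to 0.140), and Vav2 did so without pair 1, 2 or 4 (up to 0.140). Fgd4 and Itsn1 of this list differed between pairs by the F test of the pairs (adjusted p = 0.00805 and 0.0112), and the others did not.

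None of 18 GTPases of the list of Rac, Cdc42 and their relatives passed by limma, with 1 lower and 1 higher at an unadjusted p under 0.05 and, with trend and robust eBayes, 1 lower (Rac2) and 1 higher (Rhoq). The substrates of the DOCK proteins are named here for that role. Rac2, the blood cell form, read 833, 849, 744, 863 and 720 in controls 1 to 5 and 693, 727, 570.7, 689 and 570.6 with the shRNA, lower in 5 of 5 pairs. Its log2 change was -0.31 (SE 0.08, adjusted p = 0.102), and shRNA sample 2 alone stood above the lowest control. Rac1 changed by 0.12 (SE 0.08, adjusted p = 0.596) and Cdc42 by 0.04 (SE 0.09, adjusted p = 0.889).

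**Figure D4:**
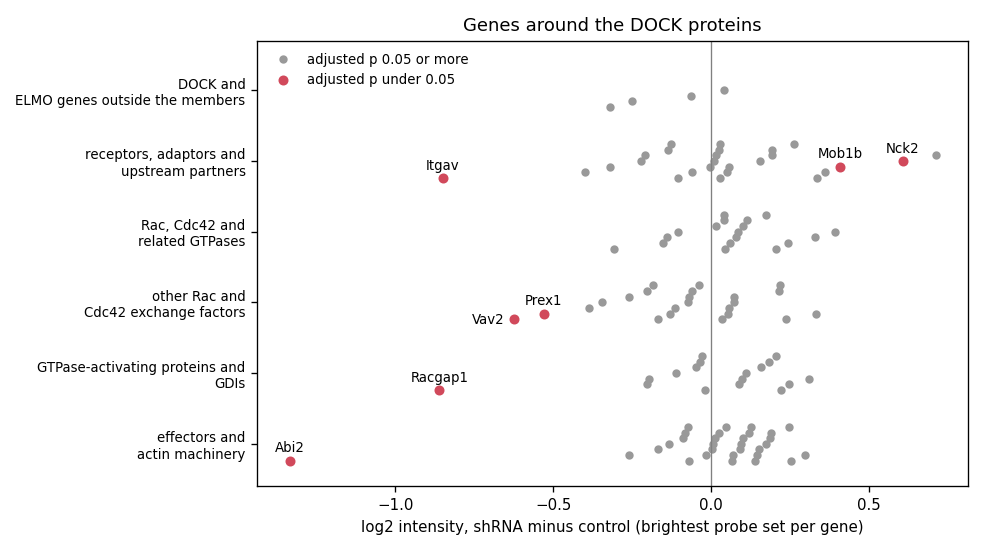
Log2 intensity difference, shRNA minus control (horizontal axis), of each measured gene of the 6 lists around the DOCK proteins, 1 point a gene by its brightest probe set; red points passed an adjusted p of 0.05 by limma and are named, and vertical offsets only separate points. Most genes lie near 0, and Abi2 at -1.34 is the lowest.

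The genes whose log2 levels followed Dock5 1430291_at most closely over the 10 arrays, among 6720 genes with a mean log2 level over 5, were Ppp2r5e (Pearson r 0.981), Dnm1l (0.976), Rasgrp2 (0.966), Inafm2 (0.953) and Bend4 (0.949). After the means of groups and pairs were taken out, the r values were 0.944, 0.820, 0.717, 0.945 and 0.945. What remains of a control and of its shRNA partner then mirror each other, so these values rest on only 5 pair differences. These correlations describe the likeness of patterns that share the arrays and the group difference, and were the highest of many. As Dock5 was chosen for its decrease and these genes for their likeness to it, their changes carry no test. Ppp2r5e, a regulatory subunit of the phosphatase PP2A, was at a log2 change of -0.84. Rasgrp2, an exchange factor for Rap1, changed by -0.64 (-0.26 when its probe sets were averaged), Inafm2 at -1.13 and Bend4 at -1.32. Dnm1l, the GTPase of mitochondrial fission, had the same shape over the arrays on a smaller scale, with a change of -0.14.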

How the data were processed

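RNA of 10 samples was extracted on silica columns and labelled by the Affymetrix procedure, per the labels' protocols. The deposited values are probe set intensities, made by the authors with RMA per the submitters' processing notes (RMA version and settings: not given in the sources used here). Their range (1.30 to 32400) shows a linear scale, although RMA itself reports log2 values. RMA can compress large fold changes. All were log2-transformed here without a pseudocount, and 64 Affymetrix controls were left out. Platform annotation gave 1 symbol for 34945 probe sets, several for 932 and none for 9160. Of the first, 34741 matched a RefSeq gene (GRCm38.p6) by Entrez identifier and 0 symbols changed.

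Groups were compared with limma 3.58.1 in R 4.3.3 (lmFit and eBayes, two-sided, Benjamini-Hochberg over 45037 probe sets, threshold 0.05), with sample numbers as a fixed block because the labels' treatment protocol states the pairing. Over 11215 probe sets with mean log2 over 5, deviations of paired samples correlated at 0.310 to 0.600, though the consensus correlation over all probe sets was 0.08. Scripts were tested on simulated data. The members and lists were chosen with earlier results of these data known. Named genes were all members, up to 4 genes past the threshold per list, the 5 genes most like Dock5, and Rac1, Rac2 and Cdc42, added later as substrates. Rhoq, Git2 and Itgb5, which passed with trend and robust eBayes, and some genes that differed between pairs were named as well. Alternatives were no block, a random block, quantile normalization, median centring, a pseudocount of 16, a filter on dim probe sets, other variance models, array weights, the 3'/5' ratio as a covariate, the mean over a gene's probe sets, and each pair left out.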

Additional observations from a re-analysis of the deposited data

Results flagged for a closer look

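In 58 groups of 5 arrays (29 probe sets, each in controls and shRNA samples), 4 held a sample that stood apart from the other 4 by more than 0.71 of the group's range on the log2 scale, and chance gives this in about 1 of 20 groups. Dock8 by 1439226_at had 2 of them, shRNA sample 5 at 65.4 (others 21.1 to 27.9) and control sample 1 at 21.14 (others 28.35 to 31.45). Dock1 by 1443991_at read 4.49 in shRNA sample 2 (others 5.46 to 5.74), and Dock9 by 1445232_at read 5.69 in control sample 2 (others 6.68 to 6.99), both dim.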

How the results depend on the processing

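The Dock5 decrease by 1430291_at kept its sign under all alternatives and stayed within 1 SD of its pair differences (log2 change -1.01 with a pseudocount of 16, -1.69 without pair 5, -1.50 with no replicate block). With the 3'/5' ratio as a covariate it was -1.37, and its SE was 0.34 against 0.18 in the main fit. Of the 29 probe sets 2 were past the threshold, but 1 with no replicate block, a pseudocount of 16, the filter on dim probe sets or without pair 2 or 3, 0 without moderation or with the 3'/5' ratio as a covariate, and 3 with trend and robust eBayes. Elmo1 went from -0.004 to 0.09 (SE 0.08) after quantile normalization. With the 3'/5' ratio as a covariate Dock11 went to 0.08 (SE 0.16) and 1439129_at of Dock5 to -0.47 (SE 0.29). The counts of all probe sets past the threshold, of genes around the DOCK proteins and of probe sets that differed between pairs were 1116, 7 and 339. They were 2040, 12 and 690 among probe sets with mean log2 over 5, and 2309, 11 and 1243 with trend and robust eBayes. Without moderation they were 33, 0 and 0, and with the ratio as a covariate 0, 0 and 102. With 1 pair left out they ran from 359 (without pair 4) to 1674, from 2 (without pair 2 or 4) to 7, and from 122 (without pair 5) to 281. The paired design changed none of these 3 by over 1.5 times where an unpaired fit could be made (816 and 5 with no replicate block). Meis1 was at -1.09 without moderation (adjusted p = 0.0542) and at -0.98 with the covariate (adjusted p = 0.246). The covariate itself differed between the groups, and the cause of the lower counts was not tested. Of the 29 probe sets 22 were dim, which limits what a lack of change in them can show.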
